A study of Mus musculus with 30 samples.

Results

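The transcripts compared here are those that a single-cell array experiment detected in every cell it measured, in 4 primordial germ cells (PGCs) labelled *Prdm14* (-/-) against 13 labelled *Prdm14* (+/+). These 17 cells are part of 30, the other 13 being labelled *Prdm14* (+/-). All came from C57BL/6 embryos of *Prdm14* (+/-) intercrosses at E7.25-E7.5, so the groups shared age, strain and tissue, and they differed in the labelled alleles and in the array run. Each was picked singly from the base of the allantois bud, its cDNA was amplified, and cells whose cDNA was positive for *Prdm1* by PCR were put on 1 array each. The groups are called KO-labelled, WT-labelled and heterozygous-labelled, since the transcript of the targeted gene ran against the labels, as given further on. A probe set was kept if its deposited value, a model-based expression index (MBEI) on the log2 scale, was above 0 on all 30 arrays, so that no difference depends on how values listed at 0 are treated. Of 45101 probe sets, 3239 were kept, and the 2815 of these with 1 gene symbol stood for 2051 of 18194 genes. The other 247 with several symbols and 177 without a listed symbol were left unnamed.

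PGCs are the founders of sperm and eggs. In the mouse they are set aside from the posterior epiblast under BMP and WNT signals, beside cells that become extraembryonic mesoderm, and PRDM1 and PRDM14 together shut down the somatic programme and restore pluripotency genes. PRDM14, a PR-domain zinc-finger protein, is also known for lowering FGF signalling and de novo DNA methylation in embryonic stem cells. Transcripts found in every single cell are mostly those of housekeeping machinery, such as ribosomes, mitochondria, glycolysis and splicing, with a smaller share of lineage genes.

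Each array held 1 cell and its embryo of origin is not stated, so a genotype amounts to 1 sample. No test was run, and each SD describes the spread between cells only. *Prdm14* was above 0 in all 4 KO-labelled cells, at 10.03 to 12.15, and in 6 of 13 WT-labelled cells. The sources used here do not say whether its probe set reads the stretch that was deleted, and a probe set outside that stretch checks nothing. *Dppa3*, a PGC gene known as stella, read 11.98, 12.71, 12.80 and 12.72 in the KO-labelled cells and 0 to 11.77 (median 9.26) in the WT-labelled cells, so all 4 KO-labelled cells lay above all 13 WT-labelled cells. Whether labels were exchanged was not tested, and an exchange would turn the sign of every difference between the KO and WT labels given here. The array codes gave 3 runs. The 4 KO-labelled cells were all in run 3, and the WT-labelled cells were in run 1 (10 cells) and run 2 (3 cells), so label and run cannot be told apart in any KO and WT difference below. Within run 3, the KO-labelled cells could be set against 6 heterozygous-labelled cells, and that difference is given beside the main ones. Arrays detected 36.4% to 39.7% of all probe sets in the KO-labelled cells and 30.7% to 41.1% in the WT-labelled cells. Of the quality controls on the array, those reading the 5′ end were lower in the KO-labelled cells by 0.56 (*Gapdh*) and 0.86 (*Actb*), and those reading the 3′ end by 0.16 and 0.10. The gap between 3′ and 5′ signal, which widens as RNA or cDNA shortens, was thus larger in the KO-labelled cells by 0.40 for *Gapdh* and 0.77 for *Actb*. Its part in the results was not tested. The mean level over 9 measured PGC markers, *Prdm1* and *Prdm14* among them, was 10.47 to 11.93 in the KO-labelled cells and 5.48 to 10.64 in the WT-labelled cells. That over 11 mesoderm markers was 4.85 to 6.83 and 5.71 to 8.99. Over 7 blood and endothelium markers it was 1.64 to 4.32 and 0 to 2.82, over 7 endoderm markers 1.49 to 3.99 and 0 to 4.21, and over 5 extraembryonic ectoderm markers 0 to 5.19 and 0 to 2.71. No marker of these last 3 cell types was always detected, and *Afp* was at 0 in all 17 cells.

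Most always-detected genes differed little between the labels. The median difference, KO-labelled minus WT-labelled, was 0.03 over the 2051 genes, and the middle 50% of genes lay between -0.22 and 0.33. By at least 1 on the log2 scale, 78 genes were higher in the KO-labelled cells (3.8% of genes) and 81 were lower (3.95%). After quantile normalization the split was 65 higher and 120 lower. These counts were close to those between runs of a single label. WT-labelled cells of run 2 differed from those of run 1 by at least 1 at 150 genes (7.31%), and heterozygous-labelled cells of run 3 from those of run 2 at 153 (7.46%), beside 159 (7.75%) between the KO and WT labels. These comparisons differ in the number of cells. Within run 3, 6.0% of genes were higher and 4.97% lower by at least 1 in the KO-labelled than in the heterozygous-labelled cells.

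**Figure D1:**
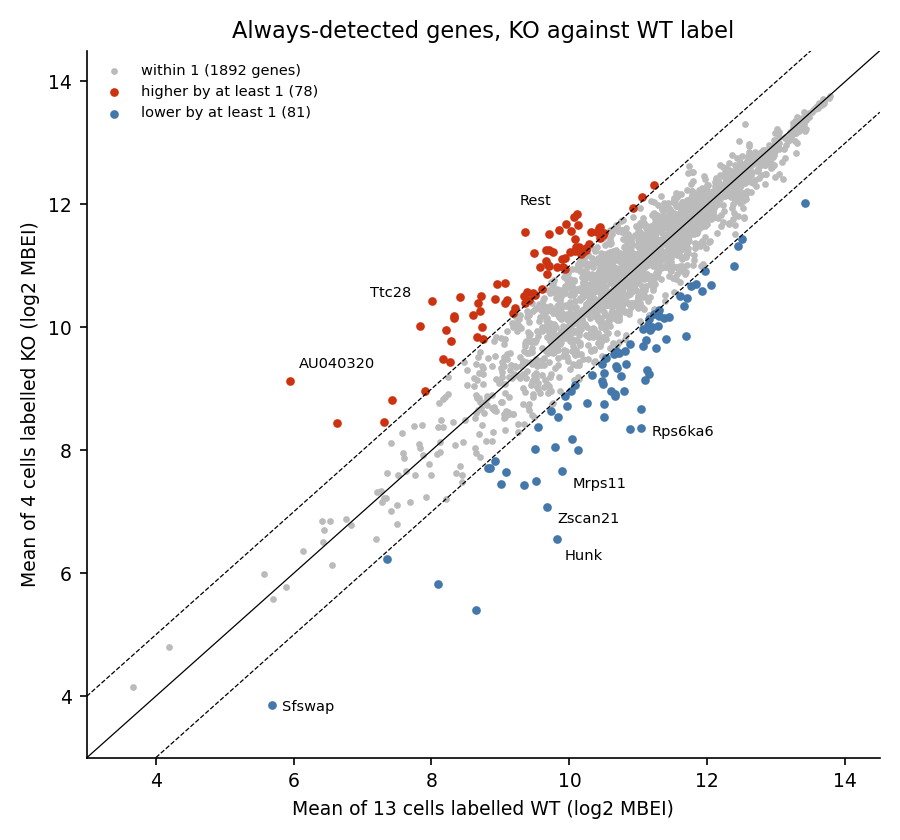
Mean log2 MBEI of each of the 2051 always-detected genes in the 13 WT-labelled cells (horizontal) and the 4 KO-labelled cells (vertical), 1 point per gene. Solid line, no difference. Dashed lines, differences of 1. The 78 red and 81 blue points lie past 1, mostly at lower values, and the cloud narrows towards the top.

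The size of a difference depended on where on the array's scale a gene lay. Among 138 genes with a mean value below 9 on the log2 scale, the median SD between WT-labelled cells was 1.38 and 24 genes were past 1. Among 74 genes with a mean of 13 or above, that SD was 0.07 and 1 gene was past 1. Of the 356 genes with a mean of 12 or above, 3 were past 1, and all of them were lower in the KO-labelled cells: *Gnas*, *Phlda2* and *Tpi1*. The direction of the calls varied with level too. Among 591 genes with a mean of 11 to 12, 3 were higher and 15 lower, and among 664 at 10 to 11, 39 were higher and 37 lower. Single cells also carried many of the calls. With 1 of the 4 KO-labelled cells left out, whichever bore on the gene most, 61 of the 81 lower genes and 31 of the 78 higher genes came under 1. Cell 8 was the lowest KO-labelled cell at 27 of the lower genes, cell 21 at 25, cell 81 at 19 and cell 18 at 10. A value under 6 in at least 1 KO-labelled cell occurred at 28 of the lower genes, and one in at least 1 WT-labelled cell at 40 of the higher genes.

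At 10 genes the 2 labels did not overlap at all. All 4 KO-labelled cells lay below all 13 WT-labelled cells at 7 genes (0.341% of genes) and above them at 3 (0.146%). These 10 are named because of this lack of overlap, after their values were seen. At all 10, the heterozygous-labelled cells reached into the range of both other groups. *Rbbp7*, a histone-binding protein shared by Polycomb repressive complex and deacetylase complexes, read 12.76, 12.23, 12.27 and 12.39 in KO-labelled cells 8, 18, 21 and 81. The WT-labelled cells read 12.80 at the lowest, 13.11 at the median and 13.30 at the highest. The gap between the nearest cells was small, and the difference of the means was -0.68 (pooled SD 0.17). Its other always-detected probe set differed by -0.64.

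*Stx5a*, a SNARE protein of the Golgi, had KO-labelled values of 10.09, 9.48, 10.23 and 9.0 and WT-labelled values from 10.24 (median 11.17) to 12.06. Its difference was -1.36, and it was -0.71 against the heterozygous-labelled cells of run 3. For *Capzb*, the β subunit of the protein that caps actin filaments, the KO-labelled cells read 9.43, 10.83, 10.75 and 10.89 against 11.25 to 12.62 (median 11.67). Cell 8 stood lowest, and the difference was -1.23, or -0.88 without that cell. *Mcrip1*, which binds a transcriptional corepressor, differed by -1.0 (-0.93 without cell 21), *Slc7a4*, of the cationic amino acid transporter family, by -0.69 and *Ybx1*, a cold-shock-domain RNA-binding protein, by -0.57. *Tbrg1*, a growth regulator, differed by -0.78 from the WT-labelled cells but by 0.10 from the heterozygous-labelled cells of run 3, and by 0.52 with array run as a block. The heterozygous-labelled cells of run 3 averaged 10.19 for this gene, close to the KO-labelled mean of 10.29.

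Of the 3 genes that stood above, *Commd10*, a member of the COMMD family of sorting proteins, read 10.23, 10.16, 10.38 and 10.03 in the KO-labelled cells. The WT-labelled cells reached from 3.90 to 9.89 with a median of 9.31, a long tail below the KO-labelled cells. The difference of 1.59 was within the pooled SD of 1.62. It was 1.96 against the WT-labelled cells of run 1 and 0.36 against those of run 2. *Bola2*, which takes part in iron-sulphur cluster delivery, was higher by 0.81. *Sub1*, a transcriptional coactivator, was higher by 0.19 and by 0.05 against the heterozygous-labelled cells of run 3. The shift was small but even, with KO-labelled values of 13.13 to 13.19 and a highest WT-labelled value of 13.12.

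**Figure D2:**
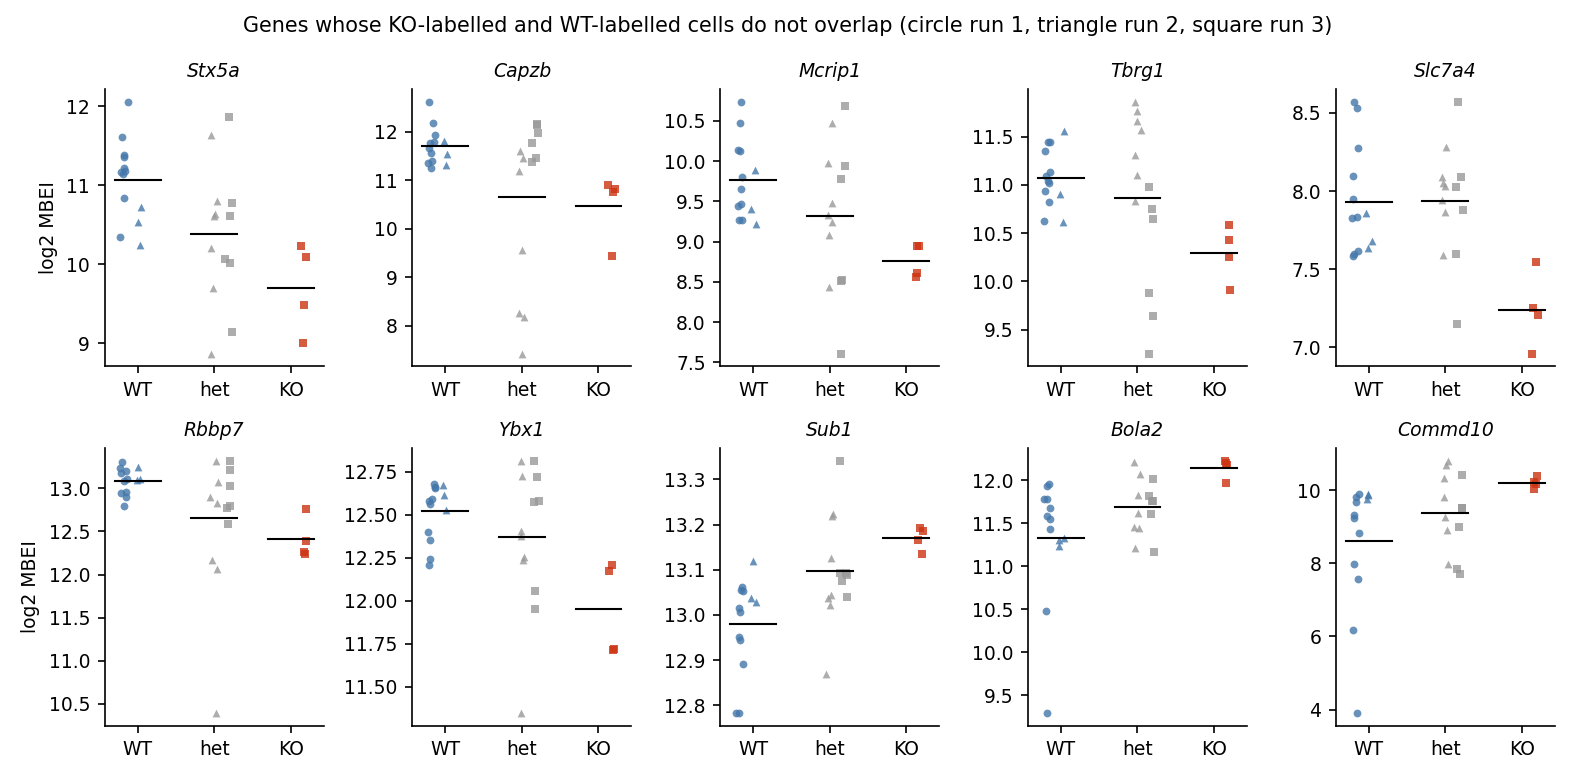
Log2 MBEI in each cell (1 point per cell, circles run 1, triangles run 2, squares run 3) for the 10 always-detected genes whose KO-labelled and WT-labelled cells do not overlap. Bars are group means over 13 WT-labelled, 13 heterozygous-labelled (het) and 4 KO-labelled cells. In all 10 panels the heterozygous-labelled cells reach into both other groups. Each panel has its own axis.

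The genes with the highest differences in which every KO-labelled cell lay above the WT-labelled median had varied functions. *AU040320* led with 3.18, from KO-labelled values of 8.19, 10.37, 8.94 and 9.03 against 1.63 to 10.87 (median 4.05). Here the WT-labelled cells covered the whole range, and the heterozygous-labelled cells of run 3 were level with the KO-labelled ones (-0.01). *Rest*, a repressor of neuronal genes in other tissues, was the clearest of the 12 against its spread. It read 12.24, 11.77, 11.99 and 11.19 in the KO-labelled cells and 8.83 to 11.21 (median 10.14) in the WT-labelled cells. Its difference of 1.73 exceeded the pooled SD of 0.72 and was 1.50 within run 3. *Prdm1* had the same difference, 1.73 (pooled SD 1.09), and is described with the germ cell genes.

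*Arf6*, a small GTPase of endosomal recycling, was higher by 2.19, *Stx3*, a SNARE of the plasma membrane, by 1.81 and *Ap4s1*, a subunit of the AP-4 adaptor, by 1.71. The KO-labelled cells read 12.21, 10.96, 11.50 and 11.38 for *Stx3*, and 11 of the 13 WT-labelled cells lay below all of them. *Smc6*, a subunit of the SMC5/6 complex that keeps chromosomes intact, was higher by 2.09 than in the WT-labelled cells but by -0.15 against the heterozygous-labelled cells of run 3. The others were *Ttc28* (2.41), the centrosomal gene *Cep43* (1.84), the histone H4 lysine-20 methyltransferase gene *Kmt5c* (1.77), the ubiquitin ligase gene *Rnf213* (1.74) and *Tmem248* (1.73). Against the heterozygous-labelled cells of run 3, *Tmem248* differed by 0.12 and *Rnf213* by 0.99, and *Rnf213* by 0.43 against the WT-labelled cells of run 2 and by 0.22 with array run as a block. The differences of *Cep43*, *Tmem248* and *Ap4s1* were within their pooled SDs of 2.39, 2.33 and 1.80. The pooled SD was exceeded at 37 of the 78 higher genes and at 70 of the 81 lower genes. The WT-labelled cells were the more variable group across the 78 higher genes, with a median SD of 1.52 against 0.52 between KO-labelled cells.

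The 12 leading lower genes except *Sfswap* showed the reverse, a wider spread among the KO-labelled cells. For *Sfswap* the SD was 0.65 between KO-labelled and 1.89 between WT-labelled cells. Over the 81 lower genes the median SD was 1.50 between KO-labelled and 0.73 between WT-labelled cells. *Hunk*, a serine/threonine kinase gene, had the lowest difference, -3.26, from KO-labelled values of 4.18, 9.08, 3.20 and 9.76 against 5.84 to 11.30 (median 10.23). Cells 8 and 21 lay below all WT-labelled cells and cells 18 and 81 within their range, and without cell 21 the difference was -2.14. *Rps6ka6*, which encodes the ribosomal S6 kinase RSK4, was more even. Its KO-labelled cells read 10.29, 8.14, 7.01 and 8.04 and its WT-labelled cells 9.48 to 12.44 (median 10.99), a difference of -2.67 (pooled SD 0.93).

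*Cstf3*, a factor in cutting the 3′ ends of mRNA precursors, differed by -2.53, but by -1.04 without cell 21, which read 3.88 when the other KO-labelled cells read 9.29 to 10.37. *Gemin7*, part of the complex that assembles spliceosomal RNPs, differed by -1.90 and by -0.87 without the same cell. *Sfswap*, a splicing regulator, differed by -1.82 with values under 5 in all 4 KO-labelled cells and a WT-labelled median of 5.04, so its level was near the low end of the scale in both groups. *Taf1d*, a subunit of the RNA polymerase I initiation factor, differed by -1.97. The others were *Zscan21*, a zinc-finger gene (-2.59, or -1.37 without cell 21), *Mrps11* of the mitochondrial ribosome (-2.23, or -1.36 without cell 18), the LIM-domain gene *Fhl1* (-2.13), *Nf2*, encoding the tumour suppressor merlin (-2.01, or -1.08 without cell 81), the ubiquitin ligase gene *Ube4b* (-1.92) and *Fabp5*, a fatty-acid carrier (-1.83). *Ube4b* came to -0.59 and *Fhl1* to -0.65 without cell 21, which had the lowest value of both.

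Housekeeping genes were always detected more often than the genes of the other kinds of list, and varied least between WT-labelled cells. Of 492 genes in 12 housekeeping lists, 362 (73.6%) were always detected, compared with 56 of 222 (25.2%) in 9 developmental lists, 41 of 87 (47.1%) in 2 cell cycle lists and 8 of 54 (14.8%) in 2 stress lists. Of 43 genes in 3 lists for other cell types, 0 were. Of the 362 housekeeping genes, 2 were higher and 7 lower by at least 1, which is 2.49% past 1 against the 7.75% of all genes, and their median SD between WT-labelled cells was 0.32 against 0.63. Of the 56 developmental genes, 2 were higher and 5 lower (12.5%), and of the 41 cell cycle genes 0 were past 1. The 7.75% is over genes of every level, and the sets were not matched for level. Past 1 were 17.4% of all genes with a mean below 9 and 0.71% of those at 12 to 13. The median SD between WT-labelled cells was 0.60 for developmental and 0.57 for cell cycle genes.

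Genes of the protein synthesis machinery lay close to 0. The 37 always-detected genes of cytosolic ribosomal proteins had a median difference of -0.01, and 0 were past 1. A score for each cell, the mean over a list's members, was 13.27 ± 0.03 (SD, n = 4) in the KO-labelled and 13.30 ± 0.03 (SD, n = 13) in the WT-labelled cells, a difference of -0.029 against a pooled SD of 0.0275. Their lowest member was *Rpl27a* at -0.65, with means of 8.15 in the KO-labelled and 8.80 in the WT-labelled cells. The other 36 lay between -0.07 and 0.07, though another probe set of *Rps9* differed by 0.63. Over all 74 genes with a mean of 13 or above, the median absolute difference was 0.04. The part of level in this was not tested. The 37 translation factors had a median of 0.02 and 0 past 1, from *Eif5b* at -0.67 (-0.29 without cell 21), which joins the ribosomal subunits, to *Eif2d* at 0.67. This holds for the probe set that stands for each gene. Other probe sets of *Eif4g2* and *Eif5* reached -1.38 and 1.05. The 28 chaperones had a median of 0.00 and ranged from *Cdc37*, a kinase cochaperone (-0.51, or -0.20 without cell 21), to the prefoldin gene *Pfdn4* (0.49, or 0.28 without cell 8). For 31 proteasome subunits the median was -0.11, 0 were past 1, and *Psmd7* (-0.88, or -0.49 without cell 81) and *Psmd1* (0.71, or 0.44 without cell 8) marked the ends.

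The respiratory chain and ATP synthase, with 69 of 75 genes always detected, had a median difference of -0.07 and 0 past 1. The score differed by -0.06 (pooled SD 0.08). By complex, the median was 0.01 over 30 genes of complex I, -0.20 over 4 of complex II, -0.20 over 10 of complex III with cytochrome c, -0.04 over 9 of complex IV and -0.10 over 16 of ATP synthase. *Uqcrq* of complex III was lowest at -0.66 and *Ndufc1* of complex I highest at 0.52. The mitochondrial ribosome was close to this, with a median of -0.09 over 46 genes. By at least 1, 2 of the 46 were lower, where 3.95% of all genes were, and 0 were higher (3.8%). *Mrps11* of the small subunit read 7.96, 5.05, 8.53 and 9.13 in the KO-labelled cells against 8.97 to 10.45 (median 9.95). *Mrpl12* of the large subunit read 10.15, 10.06, 10.83 and 9.58 against 10.39 to 11.91 (median 11.43), a difference of -1.21. For both genes, 11 of 13 WT-labelled cells lay above all KO-labelled cells.

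**Figure D3:**
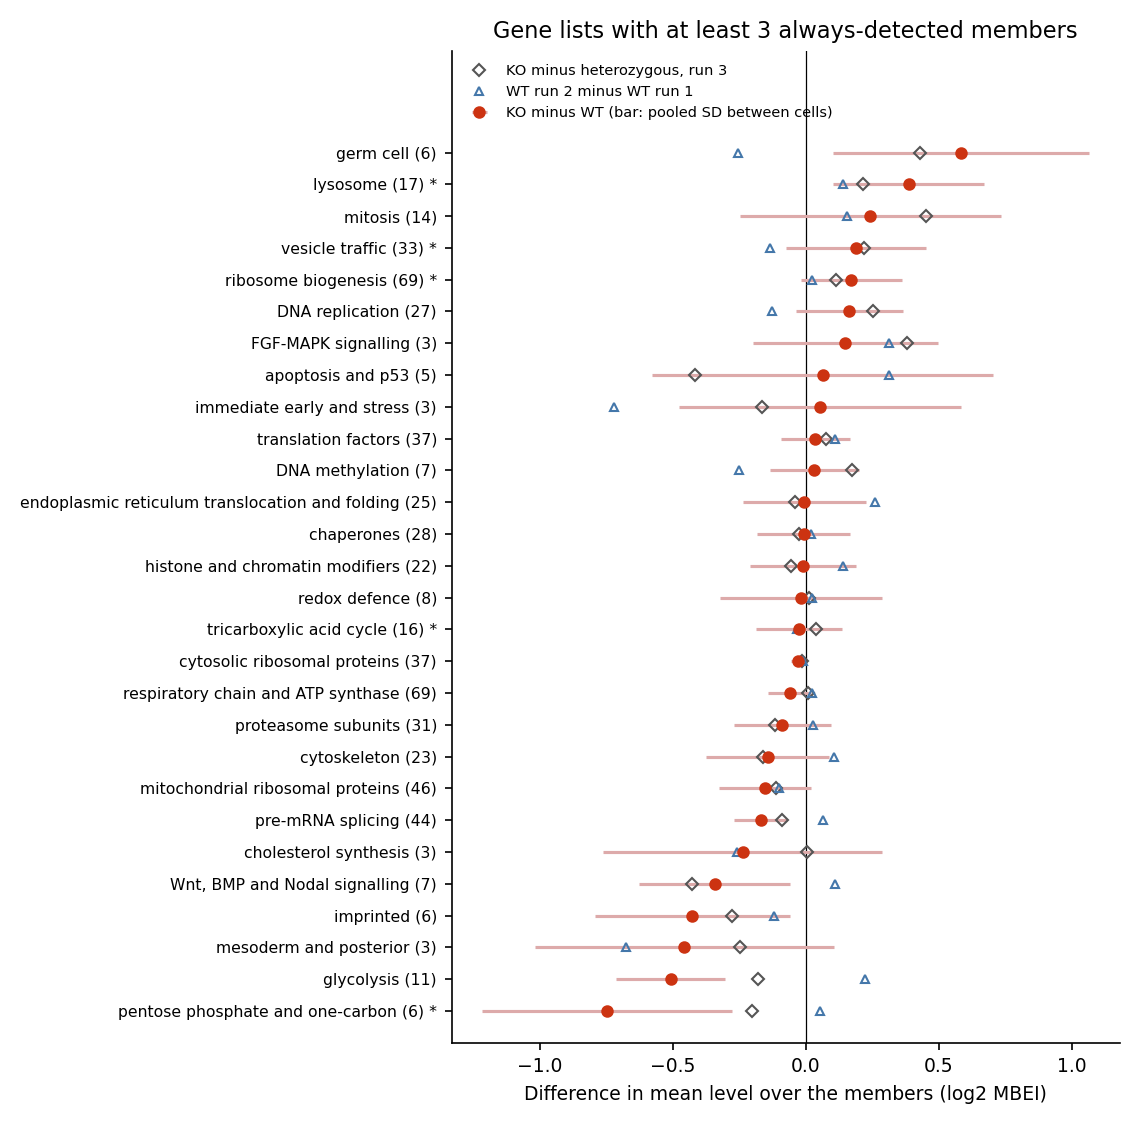
Difference in the mean level over a list's always-detected members (their number in brackets) for the 28 lists with at least 3, on the log2 MBEI scale. Red points, 4 KO-labelled minus 13 WT-labelled cells, with bars of 1 pooled SD between cells on either side. Open diamonds, KO-labelled minus heterozygous-labelled cells of run 3. Open triangles, WT-labelled cells of run 2 minus run 1. Asterisks mark lists chosen after their values were seen. Glycolysis (-0.51) lies left and the germ cell list (0.58) right of 0, each by more than its bar. Also past their bars are splicing, WNT, BMP and Nodal signalling, imprinted genes and pentose phosphate and one-carbon on the left, and lysosome on the right. The cytosolic ribosomal, respiratory and chaperone lists lie within 0.1 of 0, the cytosolic ribosomal list slightly past its narrow bar.

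Among the 12 housekeeping lists, glycolysis had the score and the median farthest from 0. Of 11 always-detected genes (16 on the array), 10 were below 0, where 46.7% of all genes were, and *Slc2a3*, a glucose transporter, was not (0.13). That share is over genes of every level, and the WT-labelled glycolysis score was 12.65. In other lists, 26 of 37 cytosolic ribosomal, 29 of 44 splicing, 16 of 37 translation factor and 14 of 28 chaperone genes were below 0. The median difference of the 11 was -0.47 against 0.03 over all genes. By at least 0.5, 5 of the 11 were lower, where 12.7% of all genes were, and 1 was lower by at least 1 (3.95%). The score was 11.97, 12.13, 11.99 and 12.48 in KO-labelled cells 8, 18, 21 and 81. It ran from 12.19 (median 12.67) to 12.89 in the WT-labelled cells, 11 of which lay above all 4. The difference of the scores was -0.51 (pooled SD 0.20), and it stayed between -0.68 and -0.45 under every alternative tried, those that left out 1 KO-labelled cell included.

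The heterozygous-labelled cells shared part of the difference from the WT-labelled cells. Within run 3 the score was lower in the KO-labelled than in the heterozygous-labelled cells by 0.18, less than the SD of 0.42 between those heterozygous-labelled cells. Within run 2, heterozygous-labelled cells differed from WT-labelled cells by -0.48. Between runs of 1 label, the score differed by 0.22 in WT-labelled cells (run 2 minus run 1) and by -0.02 in heterozygous-labelled cells (run 3 minus run 2). The 5′ controls of *Gapdh* and *Actb* were lower in the KO-labelled cells too, as given above, and their part in the glycolysis values was not tested.

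*Tpi1*, which interconverts the triose phosphates, was the member past 1. It read 10.25, 11.77, 11.54 and 11.76 in the KO-labelled cells against 11.28 to 12.92 (median 12.62), a difference of -1.12 (-0.76 without cell 8). Cell 8 stood apart below the other KO-labelled cells, which lay within the WT-labelled range. Of the 13 WT-labelled cells, 12 lay above all KO-labelled cells. *Ldha*, which makes lactate from pyruvate, read 13.02, 12.48, 12.76 and 13.10 against 13.03 to 13.47 (median 13.31), a difference of -0.45 (pooled SD 0.18). *Pkm*, the last enzyme of the pathway, read 12.67, 12.46, 12.48 and 12.36 against 12.60 to 13.12 (median 12.88), or -0.36 (pooled SD 0.14). *Pgk1*, the first enzyme to yield ATP, differed by -0.53 and the glucose transporter gene *Slc2a1* by -0.69. The rest were *Ldhb* (-0.92, or -0.57 without cell 8), the phosphofructokinase gene *Pfkl* (-0.63, or -0.41 without cell 18), *Aldoa* (-0.47), *Pgam1* (-0.31) and *Gapdh* (-0.24), the last read from a control probe set for the middle of its transcript. Where *Tpi1*, *Ldhb*, *Slc2a1*, *Pfkl*, *Aldoa*, *Pgk1* and *Gapdh* had other always-detected probe sets, these were lower too, the one nearest to 0 being the 3′ control of *Gapdh* at -0.16.

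**Figure D4:**
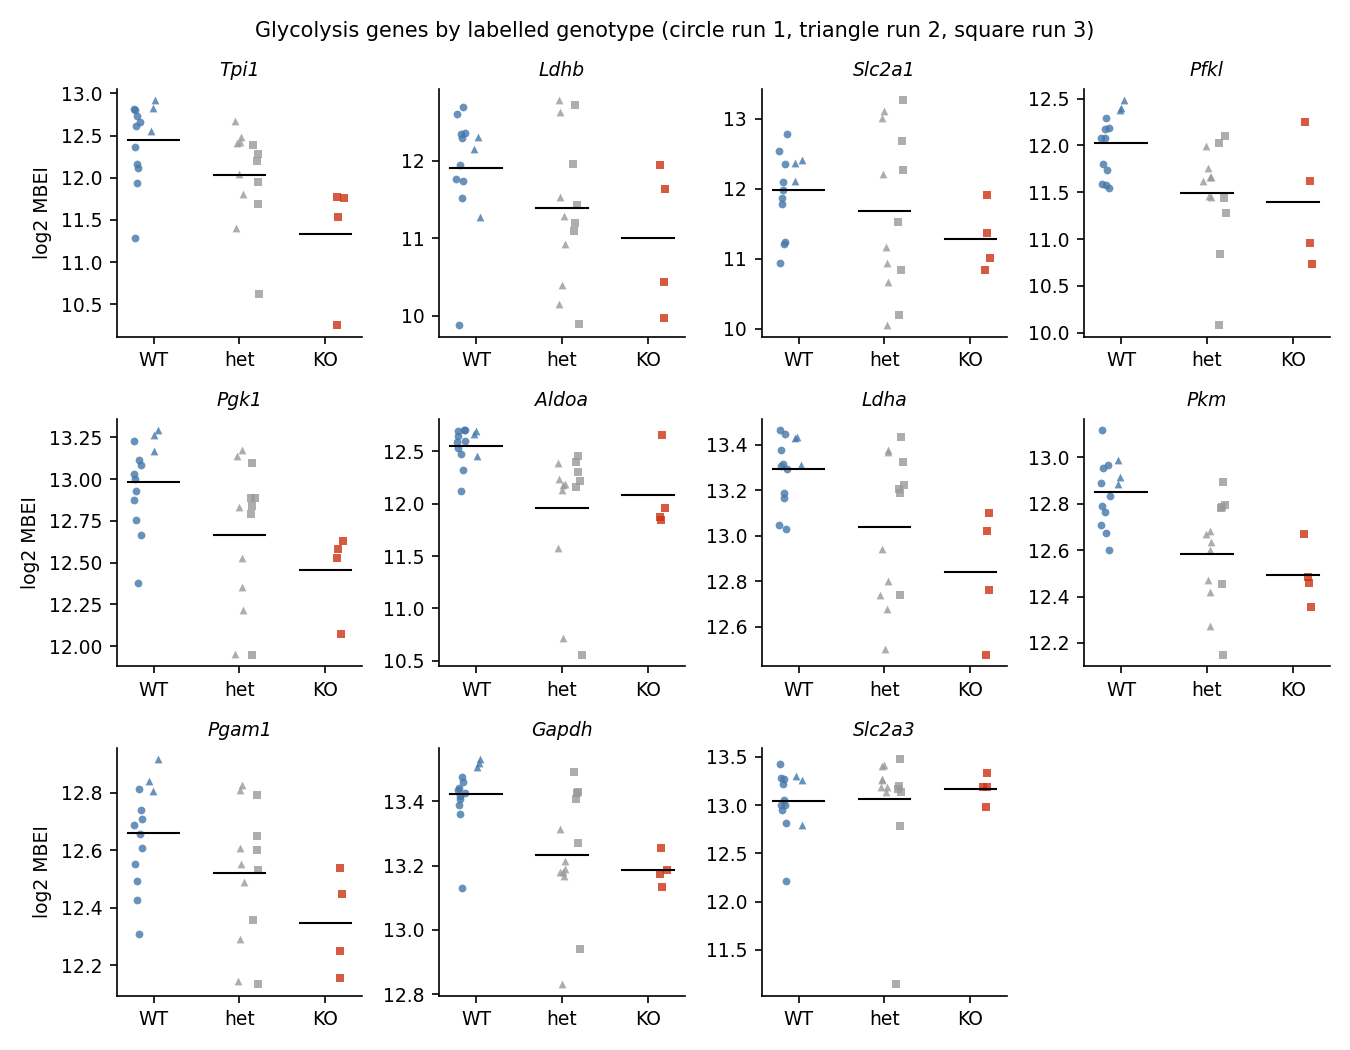
Log2 MBEI in each cell for the 11 always-detected glycolysis genes, ordered by the difference between KO-labelled and WT-labelled means (circles run 1, triangles run 2, squares run 3, bars group means over 13, 13 and 4 cells). In 10 panels the KO-labelled mean is below the WT-labelled mean, and in 9 of these 10 the heterozygous-labelled mean lies between them. Each panel has its own axis.

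Since 10 of these 11 genes lay on the same side of 0, their promoters were read from RefSeq sequence of GRCm38.p6 for the 250 bases before the first listed start, which was found for 10 of the 11. The letters searched were ACGTG on both strands (CACGT on the printed strand), the core that hypoxia-inducible factors and some helix-loop-helix proteins can bind, and the reading on either strand overlaps where CACGTG occurs. They were present in 4 of the 10 glycolysis promoters (40.0%), in 25.0% of 1700 promoters of always-detected genes and in 16.6% of all 27025. The median GC content was 61.0%, 60.0% and 52.0% in these sets. The 4 were *Ldha*, *Pgk1*, *Pgam1* and *Slc2a1*. The sequences are shown for *Ldha* and *Pgk1*, which hold several matches, and for *Tpi1*, which differed most and holds none, 5′ to 3′ on the strand of the gene with the matches in capitals.
*Ldha* (chr7:46845554-46845803, plus strand): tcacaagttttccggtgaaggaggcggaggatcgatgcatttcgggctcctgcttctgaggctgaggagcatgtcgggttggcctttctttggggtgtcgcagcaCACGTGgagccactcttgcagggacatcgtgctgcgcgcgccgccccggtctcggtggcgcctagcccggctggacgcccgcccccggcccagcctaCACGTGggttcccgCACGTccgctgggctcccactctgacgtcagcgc
*Pgk1* (chrX:106186850-106187099, plus strand): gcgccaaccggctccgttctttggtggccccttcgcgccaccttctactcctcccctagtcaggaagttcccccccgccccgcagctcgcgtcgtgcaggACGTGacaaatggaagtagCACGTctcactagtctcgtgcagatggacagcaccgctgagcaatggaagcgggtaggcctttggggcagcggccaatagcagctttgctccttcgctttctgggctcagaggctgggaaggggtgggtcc
*Tpi1* (chr6:124814159-124814408, minus strand): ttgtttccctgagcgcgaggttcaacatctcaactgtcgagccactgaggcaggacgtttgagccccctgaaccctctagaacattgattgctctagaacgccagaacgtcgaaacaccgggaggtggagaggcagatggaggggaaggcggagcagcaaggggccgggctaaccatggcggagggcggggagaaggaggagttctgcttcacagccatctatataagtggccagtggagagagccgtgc
The letters alone did not order the differences. *Tpi1* and *Ldhb*, at -1.12 and -0.92, held no match, and *Ldha*, with 5 overlapping or separate matches, differed by -0.45. A match in such a window is a description of the sequence only.

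The splicing score also differed by more than the spread between cells. The 44 splicing genes had a median of -0.09, and 0 were higher (3.8% of all genes) and 2 lower (3.95%) by at least 1. The score differed by -0.17 (pooled SD 0.10), with 9 of 13 WT-labelled cells above all 4 KO-labelled cells. Against the heterozygous-labelled cells of run 3 it differed by -0.09. *Sf3a3*, of the U2 particle, read 9.50, 10.68, 9.46 and 11.47 against 10.67 to 11.67 (median 11.36), or -1.02 (-0.74 without cell 21). *Snrpa1*, also of the U2 particle, differed by -1.01 (-0.81 without cell 18). *Hnrnpm*, an hnRNP protein gene, was less different (-0.56) but evenly so, since 12 of 13 WT-labelled cells lay above its KO-labelled cells, while *Sf3b3* lay the other way (0.44).

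Structural and secretory genes were mixed. Of 23 cytoskeleton genes, 19 were below 0 (46.7% of all genes), 2 were lower by at least 1 (3.95%) and 1 was higher (3.8%). The lower ones were *Capzb* and the α-tubulin gene *Tuba1a* (-1.05, or -0.46 without cell 21), one of a family of near-identical genes, and the higher was the actin crosslinker gene *Actn1* (1.03). The score difference of -0.14 was within the pooled SD of 0.23. The 25 genes of endoplasmic reticulum translocation and folding had a median of -0.02 and 1 member past 1 (7.75% of all genes). That member was *Ddost* of the oligosaccharyltransferase (1.05, pooled SD 1.77, or 0.89 without cell 8), while the chaperone gene *Calr* differed by -0.72 (-0.09 without cell 8). The 8 redox genes had a median of -0.09 and 0 past 1, between the peroxiredoxin gene *Prdx3* (-0.60) and the glutathione reductase gene *Gsr* (0.95, pooled SD 1.82, or 0.37 without cell 8). *Gpx4*, which guards membranes from lipid peroxidation, was higher by 0.45, and 11 of 13 WT-labelled cells lay below its KO-labelled cells. The 3 cholesterol genes, *Fdft1*, *Ebp* and *Hmgcs1*, lay between -0.42 and -0.04.

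Cell cycle genes were above 0 more often than not, and 0 were past 1. Of 27 DNA replication genes 17 were above 0 and of 14 mitosis genes 11, against 53.3% of all genes. The replication genes had a median of 0.12 and a score difference of 0.16 (pooled SD 0.20). At the top were the primase gene *Prim1* (0.98), the polymerase ε gene *Pole* (0.76) and the clamp loader gene *Rfc5* (0.64), and at the bottom *Rpa1*, which coats single-stranded DNA (-0.32), and *Dut*, which removes dUTP (-0.31). *Rfc5* read 11.54, 11.76, 11.96 and 12.20, with 11 of 13 WT-labelled cells below. The mitosis genes had a median of 0.21, from *Cks1b*, a cyclin-dependent kinase subunit (-0.39), to *Ube2c*, the ubiquitin-conjugating enzyme of mitotic exit (0.73). The heterozygous-labelled cells of run 3 and run 2 differed in the mitosis score by -0.75 among themselves, more than the 0.24 between the KO and WT labels.

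Among developmental genes, those of the germ cell list stood highest. Of 12 such genes, 6 were always detected. They had a median difference of 0.57, with 2 higher by at least 1 (3.8% of all genes) and 0 lower (3.95%), and a score difference of 0.58 (pooled SD 0.48), or 0.43 against the heterozygous-labelled cells of run 3. The score was 11.83, 12.52, 12.21 and 12.25 in the KO-labelled cells and 10.25 to 12.23 (median 11.67) in the WT-labelled cells, 8 of which lay below all 4. *Prdm1*, the repressor of the somatic programme, read 11.78, 12.27, 11.38 and 11.97 in the KO-labelled cells against 8.04 to 11.97 (median 10.17). All cells were picked for *Prdm1* by PCR, so its presence is given by the sampling. The difference was 1.73 and was 1.53 within run 3.

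*Alpl*, the alkaline phosphatase by which PGCs are stained, read 11.12, 11.90, 11.39 and 11 against 7.40 to 11.42 (median 10.54), or 1.08 (0.89 without cell 18). It was higher by 0.45 within run 3, and its difference was -0.01 with array run as a block. *Ifitm3*, the surface protein known as fragilis that marks the earliest competent cells, read 13.16, 13.44, 13.34 and 13.28 against 8.59 to 13.42 (median 12.87), or 0.76. This was within the pooled SD of 1.09. It was 0.43 against the WT-labelled cells of run 1 and 1.87 against those of run 2. Of the 13 WT-labelled cells, 12 lay below all KO-labelled cells for *Ifitm3*, and 11 did for *Alpl* and for *Prdm1*. Its neighbours in the family, *Ifitm2* and *Ifitm1*, were higher by 0.38 and 0.22. *Lin28a*, which blocks *let-7* maturation, was the lower one of the 6, by -0.67, with cell 8 at 9.32 and the other KO-labelled cells at 10.86 to 10.91, and by -0.28 without cell 8.

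**Figure D5:**
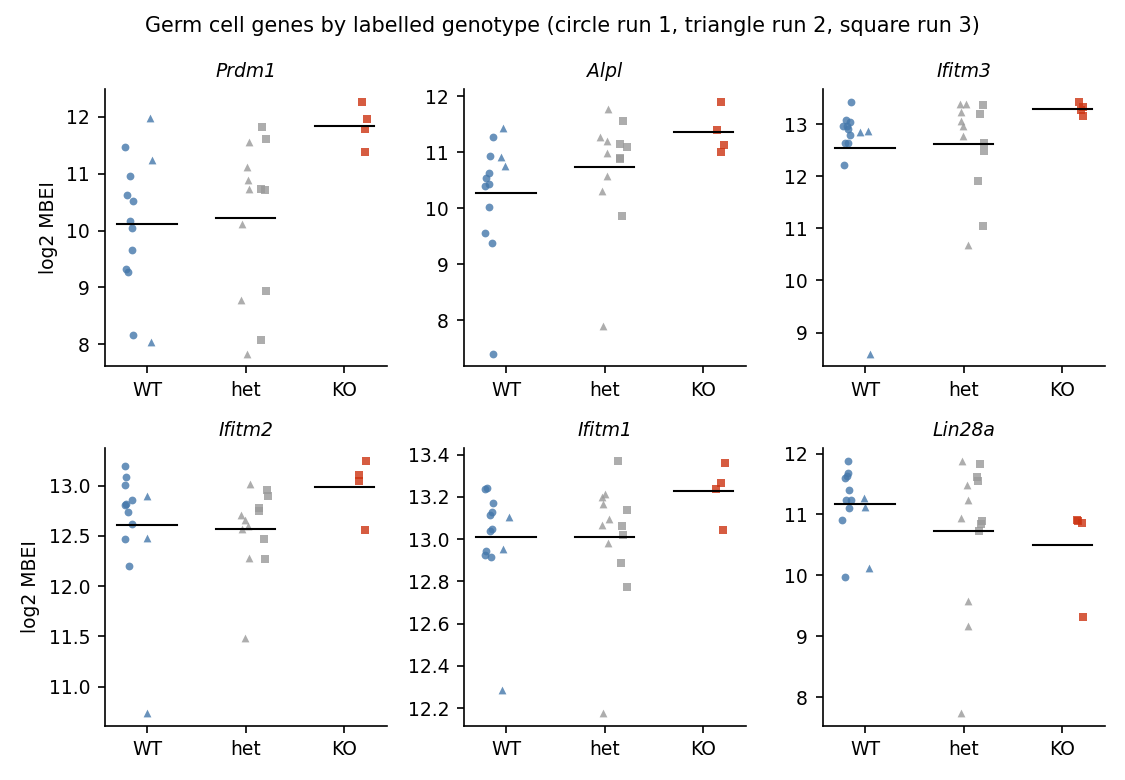
Log2 MBEI in each cell for the 6 always-detected germ cell genes (circles run 1, triangles run 2, squares run 3, bars group means over 13 WT-labelled, 13 heterozygous-labelled and 4 KO-labelled cells). The KO-labelled mean is highest in 5 panels and lowest for *Lin28a*, and the low WT-labelled and heterozygous-labelled cells of *Prdm1* lie near 8. Each panel has its own axis.

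Pluripotency had 2 always-detected genes of 22. *Pou5f1*, encoding OCT4, read 11.46, 11.22, 11.78 and 12.37 against 10.44 to 12.59 (median 11.57), a difference of 0.10 (pooled SD 0.59). *Sall4* differed by 0.24. The DNA methylation list had 7 of 18 and a median of -0.05. The maintenance methyltransferase gene *Dnmt1* differed by 0.40 (pooled SD 0.95), the repair genes *Xrcc1* and *Parp1* by 0.35 and 0.30, and *Trim28*, the corepressor that holds retrotransposons and imprints silent, by -0.30 (pooled SD 0.15). *Trim28* read 12.31 to 12.53 in the KO-labelled cells, and 11 of 13 WT-labelled cells lay above. Of 35 histone and chromatin modifier genes, 22 were always detected, with a median of 0.04 and 0 past 1. The arginine methyltransferase gene *Prmt5* (0.78) and the Polycomb gene *Eed* (0.77) were at the upper end, and 10 and 9 of 13 WT-labelled cells lay below their KO-labelled cells. *Rbbp7* (-0.68) and the deacetylase gene *Hdac2* (-0.59) were at the lower end. *Ezh2*, the methyltransferase of the same Polycomb complex as EED and RBBP7, differed by 0.19.

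Somatic and signalling genes gave few always-detected members. Of 33 mesoderm and posterior genes there were 3. The homeobox gene *Msx2* read 10.44, 6.53, 10.05 and 11.28 against 9.68 to 11.50 (median 10.69), and its difference of -1.07 came to -0.05 without cell 18. *Msx1* differed by -0.30 and *Cdx2*, of the posterior body axis, by 0.00. Of 45 genes of WNT, BMP and Nodal signalling, 7 remained, 2 of them lower by at least 1 (3.95% of all genes). The score of the 7 differed by -0.34 (pooled SD 0.28). *Lef1*, the nuclear partner of β-catenin, differed by -1.25, with cell 18 at 5.98 and the others at 8.58 to 10.30, and by -0.33 without cell 18. *Foxh1*, the Nodal effector, differed by -1.06 (-0.49 without cell 8) and the BMP target *Id1* by -0.74 (-0.46 without cell 8). *Id1* read 10.83, 11.97, 11.28 and 12.59 against 11.83 to 13 (median 12.41). *Ctnnb1*, encoding β-catenin, differed by 0.02 (its other probe set by 0.52) and *Smad3* by 0.91 (pooled SD 1.25). Of 25 FGF-MAPK genes, 3 remained, between the kinase gene *Map2k2* (-0.18) and *Map2k1* (0.54).

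Imprinted genes, expressed from 1 parental copy, gave 6 of 23, and 2 were lower by at least 1 (3.95% of all genes). *Phlda2*, a brake on placental growth, read 12.86, 13.37, 8.41 and 13.47 against 13.15 to 13.58 (median 13.41). Its difference of -1.39 rested on cell 21 and was -0.19 without it. *Gnas*, the stimulatory G-protein α subunit, read 9.83, 11.46, 11.51 and 12.94 against 11.58 to 12.82 (median 12.64), or -1.06 (-0.53 without cell 8). Here 3 of the 4 KO-labelled cells lay below all WT-labelled cells and cell 81 lay above them. *Peg3* differed by 0.12. The list's score differed by -0.43 (pooled SD 0.37), or -0.23 without cell 21. Among 8 always-detected stress and apoptosis genes 1 was past 1 (7.75% of all genes), the asparagine synthetase gene *Asns* (1.16, pooled SD 1.47, or 0.95 without cell 18). Its regulator *Atf4* differed by -0.25 and *Mcl1*, which protects from apoptosis, by -0.27. For the last 2 genes another probe set lay on the other side of 0, at 0.07 and 0.06.

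A few further programmes were listed after their values had been seen and are given as a description. Of 69 always-detected ribosome biogenesis genes, 46 were above 0, 8 higher and 4 lower by at least 1, and the median was 0.19. Over all genes 53.3% were above 0, 3.8% higher and 3.95% lower. Higher were, among others, *Dnttip2* (1.11, or 0.95 without cell 8), a nucleolar factor, and *Nmd3* (1.08, or 0.74 without cell 8), the adaptor that exports the large subunit, and lower were *Taf1d* and the helicase gene *Ddx54* (-1.82, or -0.57 without cell 8). Of 17 lysosome genes, 13 were above 0 (53.3% of all genes), 4 higher (3.8%) and 2 lower (3.95%) by at least 1, with a median of 0.43. *Hexa*, the β-hexosaminidase α subunit, read 11.44, 12.15, 11.73 and 11.37 against 8.75 to 11.48 (median 10.14), or 1.54, and the peptidase gene *Tpp1* was higher by 1.36 and the cathepsin gene *Ctsl* by 1.07 (0.84 without cell 8). *Laptm4a* (2.19) and *Laptm4b* (-1.59), both lysosomal membrane genes, lay at opposite ends.

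Vesicle traffic showed both directions, with 4 of 33 genes higher (3.8% of all genes) and 3 lower (3.95%) and a median of 0.07. The lower ones were *Stx5a*, *Arf4* (-1.10) and the retromer gene *Vps35* (-1.08), which came to -0.24 and -0.38 without cell 21, and *Sft2d1* (1.40) joined the 3 higher ones named above. The 6 genes of the pentose phosphate and one-carbon pathways had a median of -0.49. *Pgd*, of the oxidative pentose phosphate branch, read 10.94, 11.24, 7.57 and 8.94 against 10.47 to 11.99 (median 11.25), or -1.59 (-0.89 without cell 21), and *Shmt2*, of mitochondrial one-carbon metabolism, differed by -1.75 (-0.33 without cell 81). The score differed by -0.75 (pooled SD 0.47), or -0.48 without cell 81, but by -0.20 against the heterozygous-labelled cells of run 3. The 16 tricarboxylic acid cycle genes had a median of -0.13 and 0 past 1.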

How the data were processed

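Amplified cDNA of single cells was hybridised to an Affymetrix whole-genome mouse array, and the authors computed the MBEI with dChip 1.3. The deposited values are on the log2 scale, and the scaling between arrays was not given in the sources used here. Since log2 values of single cells carry no count, depth is expressed only by the number of arrays. Genotypes came from the sample labels and runs from the array codes in the sample titles. Groups were compared by the difference of mean log2 values, with no test, in Python 3.11.15 with NumPy 2.4.6, pandas 2.3.3 and matplotlib 3.10.9, and the scripts were tested on simulated data. A gene was represented by its always-detected probe set with the highest mean, under the symbol of the platform annotation. The genes named were the 12 leading ones on each side with every KO-labelled cell on that side of the WT-labelled median, list members past 1 and examples of a list's range. Genes without overlap, the remaining glycolysis and germ cell members and the lists of ribosome biogenesis, lysosome, vesicle traffic, pentose phosphate and one-carbon pathways and tricarboxylic acid cycle were chosen after their values were seen. The members and the other lists were chosen with earlier results of these data known. Lists of epiblast and ectoderm genes (13), endoderm (15), blood and endothelium (17), extraembryonic ectoderm (11) and a sample check (4) had 0 always-detected members. Alternatives were quantile normalization, centring, 2 detection rules, the mean over probe sets, medians over cells, array run as a block, WT-labelled cells of 1 run and each KO-labelled cell left out. Promoters came from RefSeq.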

Additional observations from a re-analysis of the deposited data

Results flagged for a closer look

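In 8 of the 71 gene and list values examined, 1 of the 4 KO-labelled cells lay apart from the other 3, judged by its gap to the nearest other cell over the whole range of the 4. Cell 21 was the low cell for *Cstf3* (gap 0.834 of the range), *Gemin7* (0.878), *Phlda2* (0.879) and *Ube4b* (0.919). Cell 8 was low for *Capzb* (0.902) and *Tpi1* (0.848), and cell 18 for *Actn1* (0.869), where the 4 cells spanned only 11.04 to 11.33. The score of WNT, BMP and Nodal signalling was high in cell 81 (0.939), at 11.01 beside 10.40 to 10.44 in the other cells. About 1 in 20 groups of 4 unselected normal values would be marked this way by chance. The genes examined were picked for large differences or lack of overlap, so that share need not hold for them.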

How the results depend on the processing

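Counts of genes past 1 moved most. Against 78 higher and 81 lower, there were 39 and 48 with a detection limit of 6, 138 and 139 with detection asked of the 17 arrays only, 241 and 243 with array run as a block, and 130 and 137 against the 3 WT-labelled cells of run 2. Without each KO-labelled cell in turn they were 78 to 110 and 79 to 105. Of 312 values recomputed for the list scores and the median over all genes, 304 moved by less than the SD between cells. With array run as a block, which ties the KO to the WT label only through heterozygous-labelled cells and the 3 WT-labelled cells of run 2, the score differences were -0.41 for cytoskeleton, 0.87 for mitosis, 0.26 for DNA methylation, -0.77 for WNT, BMP and Nodal signalling and -0.67 for apoptosis. Immediate early and stress genes came to -0.50 with a detection limit of 6 and to 0.61 against run 2, and DNA methylation to 0.23 against run 2. Of 48 named genes, 19 moved by more than the SD between cells with the run block, and *Alpl* turned to -0.0059. Over all alternatives, 27 of 602 gene values moved so, and that 1 was counted as turned. A change of sign was counted only for genes with a main difference of at least 1. *Tbrg1*, at -0.78 and so outside that rule, came to 0.52 with the run block. The cause was not tested. No paired analysis was possible because the labels give the groups no shared replicate numbers. With 4 cells on 1 run under the KO label, label and run cannot be told apart.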
